A study of Mus musculus with 24 samples.

Results

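Complex I (NADH:ubiquinone oxidoreductase) is the entry point of electrons from NADH into the mitochondrial respiratory chain, and its genes were examined here in splenic conventional CD4+ T cells of conplastic mice. Members were all protein-coding genes of the mouse annotation whose symbol starts with Nduf, which gave 48 of the 55414 genes in the count table. They were divided into 7 core subunits, 31 accessory subunits, 8 assembly factors (symbols starting with *Ndufaf*) and the *Ndufa4* pair, whose products belong to complex IV. Of the 48 members, 46 had enough counts to be tested. *Ndufa4l2* had 10 counts over the 24 libraries and was at 0 in 16 of them. *Ndufb11b* was listed at 0 in every library, which at 3 counts in all 24 libraries together allows up to 0.0394 CPM, for counting error only. CPM are the counts of a gene relative to the library total, with each total multiplied by its TMM factor, a scaling that holds the bulk of genes level between libraries.

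The mice shared the C57BL/6J nuclear genome and carried the mtDNA of C57BL/6J (mtDNA B6, labelled WT) or of the NZB strain (mtDNA NZB, labelled NZB). Tconv CD4+ cells (CD4+ CD25-) were left resting (labelled RES) or were activated (labelled ACT) with beads carrying antibodies to CD3 and CD28, a stand-in for antigen and costimulation, together with IL-2, a T cell growth factor. The study's methods give 72 h of activation at 1 bead per cell. Each combination of mtDNA and state held 6 libraries, and nothing in the sources used here says whether they came from separate mice, so p-values measure the spread between these libraries, which may in part be technical. The legends of the study's expression figures give an n below 6 per model and do not say what was counted. The study's methods state that males aged 2 to 3 months served for most of its experiments, but neither age nor sex is given for these libraries. The time for which resting cells were kept is not given in the sources used here, so activation and time in culture cannot be told apart.

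In complex I the core subunits carry the flavin and the iron-sulfur clusters that pass electrons from NADH to ubiquinone (N and Q modules) and, in the membrane arm, pump protons. The membrane core subunits are all encoded by mtDNA, and the Nduf core subunits are all in the peripheral arm, so the enzyme is built from products of both genomes. Accessory subunits surround the core and stabilize it, and assembly factors help to build the enzyme but leave it when it is finished. In T cells, respiration through complex I is known to rise as resting cells enter growth and division.

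Libraries were made by bulk MARS-seq, which reads the 3′ end of polyadenylated RNA and counts molecules by a unique molecular identifier (UMI). Totals were between 2157475 and 6449395 UMI counts in 22 libraries, 641467 in activated NZB replicate 1 and 51409 in resting NZB replicate 2, where a single count is worth 16.9 CPM. By the ratio of the deposited second count total to the UMI total, libraries fell into 3 sets of 8. Sets 1, 2 and 3 held 0, 4 and 2 resting B6 libraries, 5, 1 and 0 activated B6 libraries, 1, 1 and 4 resting NZB libraries, and 2, 2 and 2 activated NZB libraries. T cell genes were present in every group, with a median of 341 CPM for *Cd3e* in resting B6 cells and 264 in activated B6 cells, and *Il2ra*, a marker of activation, had a median of 3.17 CPM in resting and 76.3 in activated B6 cells (3.01 and 102 with mtDNA NZB). Genes of B cells were present too: the 8 listed B cell markers summed to between 9060 and 14400 CPM in resting B6 libraries, 2410 and 6270 in activated B6, 6110 and 18000 in resting NZB, and 1130 and 6030 in activated NZB. The 7 listed neutrophil markers summed to between 570 and 6990 CPM in resting B6 and 298 and 20100 in resting NZB libraries, against at most 170 after activation. Summed markers of myeloid, granulocyte precursor and erythroid cells were also lower after activation (for example, 820 to 2640 CPM against 22.3 to 79.6 for the 7 myeloid markers with mtDNA B6, *C1qa* being at 0 in both activated groups), whereas those of CD8 T cells, NK cells and platelets had higher medians. The part of these other cells in the changes below was not tested. In bulk RNA, fewer cells of a type and less RNA per cell cannot be told apart, and CPM are relative levels within each library's RNA.

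**Figure D1:**
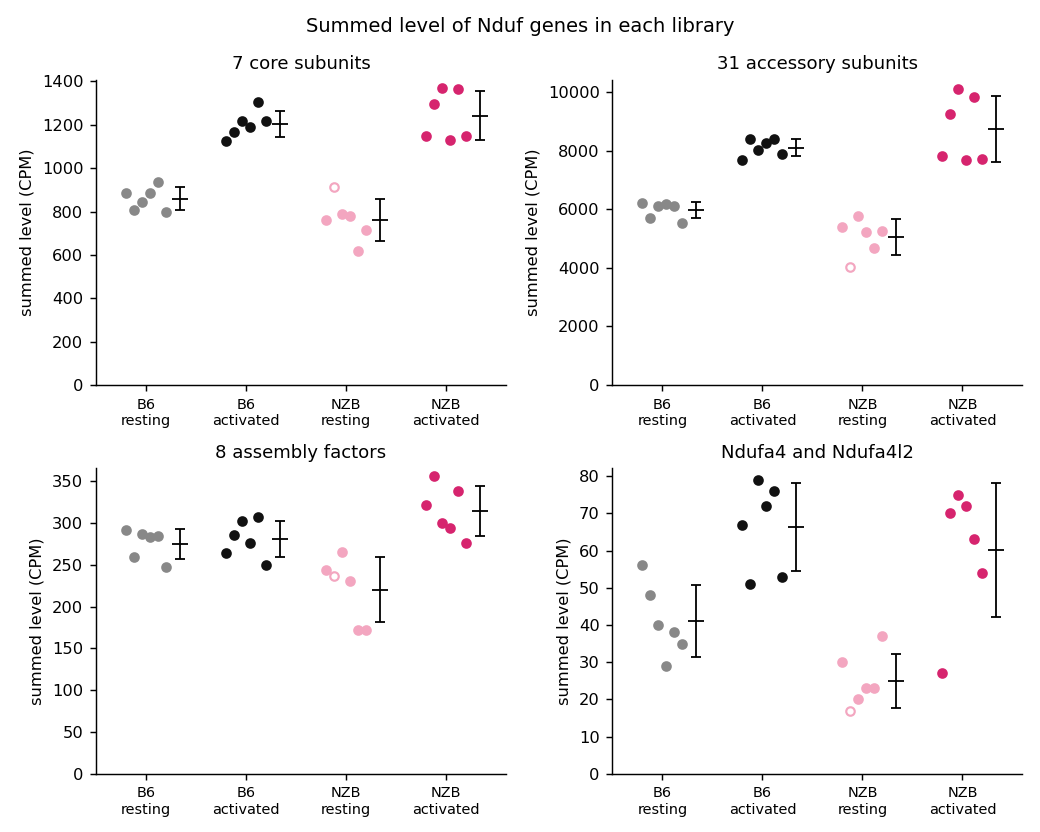
Summed level (CPM, y axis from 0) of the core subunits, accessory subunits, assembly factors and *Ndufa4* pair in each of the 24 libraries, by group (x axis). Each point is a library, the open point is resting NZB replicate 2 with 51409 counts, and bars give the mean and SD of 6 libraries. Activated libraries lie above resting ones for both classes of subunit (accessory subunits, 7678 to 8391 CPM against 5536 to 6205 CPM with mtDNA B6), whereas assembly factors overlap with mtDNA B6.

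Activation was followed by higher levels of most complex I subunits with either mtDNA. With mtDNA B6, 33 of the 46 tested members rose and 0 fell (edgeR's quasi-likelihood test, adjusted p of at most 0.05), that is 71.7% of them, where 22.4% of all 10566 tested genes rose and 24.5% fell. With mtDNA NZB, 40 rose and 0 fell, that is 87% against 25.2% of all genes (28.4% of which fell). The fitted change was above 0 for 41 and 45 of the members, against 48.3% and 47.1% of all genes. The median log2 fold change of the members was 0.46 with mtDNA B6 and 0.73 with mtDNA NZB, beside -0.026 and -0.058 for all tested genes. The changes were moderate: 0 members with mtDNA B6 and 14 with mtDNA NZB also reached a log2 fold change of 1, where 7.06% and 9.46% of all genes rose that far. Of the 46, 32 rose with both mtDNAs, 8 with mtDNA NZB alone, 1 with mtDNA B6 alone, and 5 with neither. Whether a response differed between the mtDNAs was tested as an interaction and is given further on.

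The summed level of the 7 core subunits was 859 CPM ± 52.4 (SD, n = 6) in resting and 1203 ± 61.5 in activated B6 libraries, and 762 ± 97.4 and 1243 ± 114 in resting and activated NZB libraries. The accessory subunits summed to 5976 ± 279 and 8106 ± 290 CPM in resting and activated B6 libraries, and to 5056 ± 622 and 8730 ± 1130 in NZB libraries. For both sums every activated library lay above every resting library of the same mtDNA. The 8 assembly factors summed to 275 ± 18.0 CPM at rest and 281 ± 22.0 after activation with mtDNA B6, groups that overlap, and to 220 ± 38.9 and 314 ± 29.7 with mtDNA NZB, groups that do not. No test was made of these sums.

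**Figure D2:**
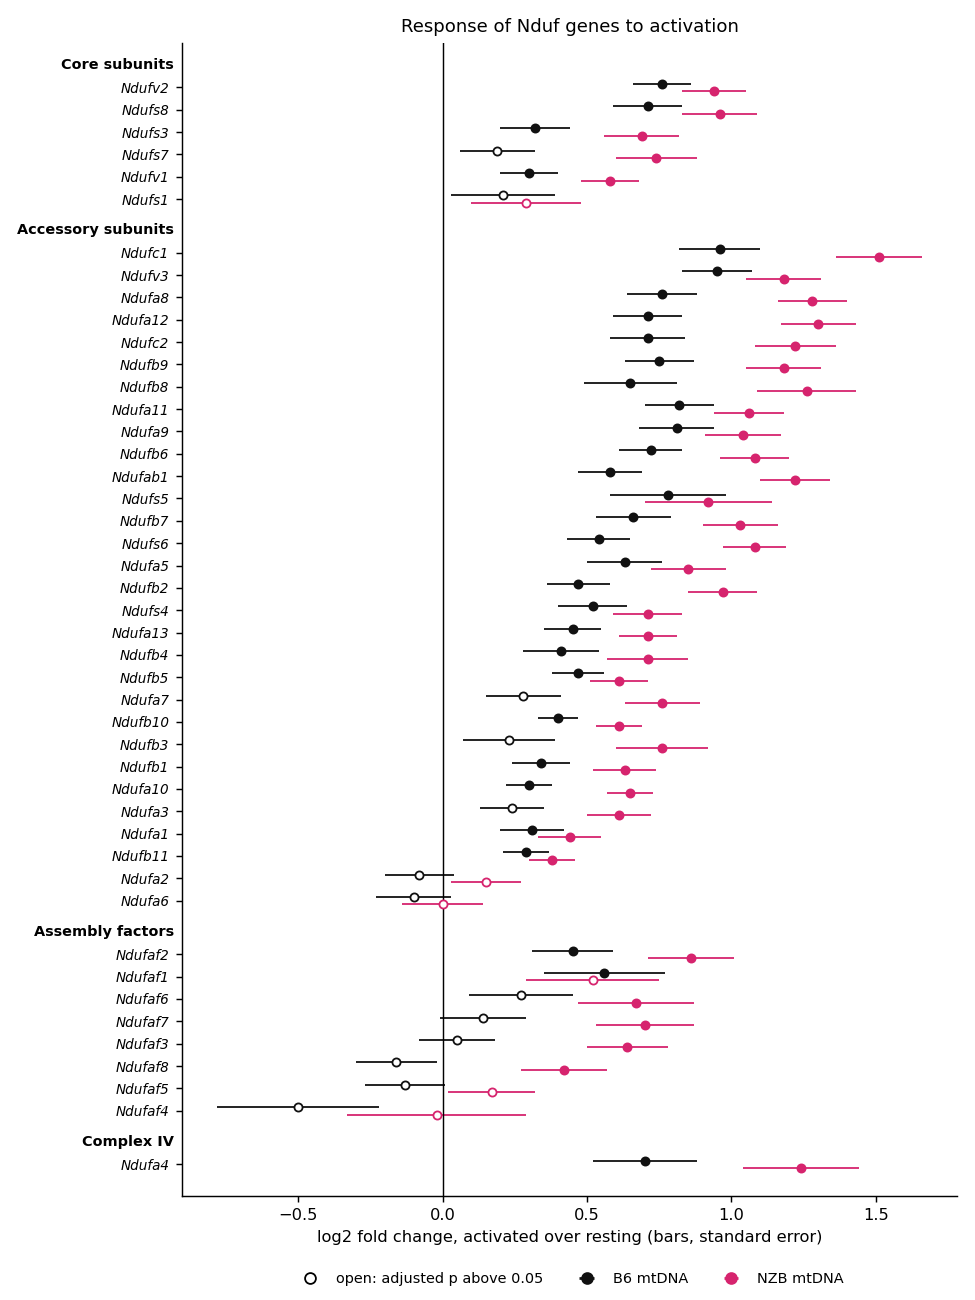
Log2 fold change of 45 of the 46 tested Nduf genes after activation (x axis), in cells with mtDNA B6 (black) and mtDNA NZB (pink), with the standard error as a bar. Filled points have an adjusted p of at most 0.05 (edgeR), genes are ordered within each class by the mean of both changes, and *Ndufa6*, *Ndufa2* and *Ndufaf4* lie at or near 0 or have wide errors.

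Of the 7 core subunits, 5 rose with mtDNA B6 and 6 with mtDNA NZB. Those of the N module, which takes electrons from NADH, differed among themselves. *Ndufv2*, an iron-sulfur subunit of the N module, was at 119 to 164 CPM (median 151) in resting and 221 to 286 (median 252) in activated B6 libraries. With mtDNA NZB it was at 111 to 186 CPM (median 135) and 214 to 287 (median 248). Neither pair of groups overlapped, and the fold changes were 1.70 and 1.92 (log2 0.76, SE 0.10, adjusted p = 1.78e-06, and log2 0.94, SE 0.11, adjusted p = 1.29e-07). Its partner *Ndufv1*, which holds the flavin and binds NADH, rose less, with log2 fold changes of 0.30 (SE 0.10) and 0.58 (SE 0.10). *Ndufs1*, the largest of the core subunits of the peripheral arm, did not pass the test with either mtDNA. It was at 34.8 to 68.1 CPM (median 48) in resting and 40.8 to 70.7 (median 56.4) in activated B6 libraries, and at 28.9 to 59.4 (median 36.8) and 40.8 to 63.2 (median 48.7) in NZB libraries. These groups overlapped, with log2 fold changes of 0.21 (SE 0.18, adjusted p = 0.335) and 0.29 (SE 0.19, adjusted p = 0.209).

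The Q module passes electrons to ubiquinone. *Ndufs8*, an iron-sulfur subunit of this module, was at 105 to 127 CPM (median 110) in resting and 173 to 202 (median 181) in activated B6 libraries. With mtDNA NZB it was at 79.7 to 220 CPM (median 96.2) and 169 to 227 (median 192), and the one resting value above 110 was that of replicate 2. It rose by a log2 fold change of 0.71 (SE 0.12) and 0.96 (SE 0.13). *Ndufs3* rose by 0.32 (SE 0.12) and 0.69 (SE 0.13), and 10.4% of the 75-base stretches of its transcripts also occur in another gene. *Ndufs7*, which carries the last iron-sulfur cluster before ubiquinone, was at 147 to 202 CPM (median 191) in resting and 185 to 237 (median 211) in activated B6 libraries, groups that overlapped. With mtDNA NZB it was at 88.9 to 203 CPM (median 156) and 202 to 273 (median 231), and the resting value of 203 was that of replicate 2, the next being 164. Its log2 fold change was 0.19 (SE 0.13, adjusted p = 0.238) with mtDNA B6 and 0.74 (SE 0.14, adjusted p = 6.18e-05) with mtDNA NZB.

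Of the 30 accessory subunits tested, 25 rose with mtDNA B6 and 28 with mtDNA NZB, with medians of 0.53 and 0.89. By place in the enzyme, and with core subunits included, 6 of 8 subunits of the N module, 5 of 8 of the Q module, 8 of 9 of the proximal membrane arm and 11 of 12 tested of the distal membrane arm rose with mtDNA B6. With mtDNA NZB these counts were 6, 7, 9 and 12. By the mean of both responses, the 3 largest changes were those of *Ndufc1*, *Ndufv3* and *Ndufa8*. *Ndufc1* (chr3:51309273-51316412, minus strand, GRCm39), a small subunit of the membrane arm, was at 73.3 to 104 CPM (median 84.6) in resting and 156 to 178 (median 166) in activated B6 libraries. In NZB libraries it was at 33.9 to 71.1 CPM (median 57.5) and 115 to 223 (median 169). Every activated library was above every resting one, and the fold changes were 1.95 (log2 0.96, SE 0.14, adjusted p = 4.47e-06) and 2.84 (log2 1.51, SE 0.15, adjusted p = 1.24e-08). The pseudogene *Gm9442* lies at its 3′ end and shares 26.5% of its 75-base stretches, so reads could be divided between them, although *Gm9442* itself had 52 counts against 9601 for *Ndufc1* over all libraries.

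*Ndufv3* (chr17:31739052-31751735, plus strand), a small subunit of the N module, was at 207 to 272 CPM (median 237) in resting and 398 to 528 (median 451) in activated B6 libraries. In NZB libraries it was at 102 to 237 CPM (median 217) and 351 to 549 (median 503), the lowest resting value being that of replicate 2. The groups did not overlap with either mtDNA, and the fold changes were 1.94 (log2 0.95, SE 0.12) and 2.26 (log2 1.18, SE 0.13). *Ndufa8* (chr2:35917572-35939425, minus strand), a cysteine-rich subunit on the side of the intermembrane space, was at 107 to 133 CPM (median 119) and 190 to 212 (median 201) with mtDNA B6. With mtDNA NZB it was at 33.9 to 117 CPM (median 95.6) and 186 to 294 (median 242). Again no resting library reached the activated ones, and the log2 fold changes were 0.76 (SE 0.12) and 1.28 (SE 0.12).

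The accessory subunits that passed the test with neither mtDNA were *Ndufa6* and *Ndufa2*. *Ndufa6* (chr15:82234340-82238523, minus strand), a protein of the LYR family in the Q module that binds an acyl carrier protein, was the one accessory subunit whose mean change over both mtDNAs was below 0. It was at 525 to 635 CPM (median 555) in resting and 488 to 604 (median 525) in activated B6 libraries, and at 237 to 635 (median 560) and 450 to 685 (median 527) in NZB libraries. These groups overlapped, and the log2 fold changes were -0.10 (95% interval -0.38 to 0.18) and 0.00 (-0.28 to 0.28). The interval with mtDNA B6 does not reach the 0.46 at the median of all members. *Smdt1*, on the other strand, overlaps the last 1000 bases of *Ndufa6*, and had 56.5% as many counts. *Ndufa2*, of the N module, had log2 fold changes of -0.08 (SE 0.12, adjusted p = 0.589) and 0.15 (SE 0.12, adjusted p = 0.291). *Ndufa3*, *Ndufa7* and *Ndufb3* were the accessory subunits that passed with mtDNA NZB (log2 0.61, 0.76 and 0.76) and not with mtDNA B6 (0.24, 0.28 and 0.23, adjusted p = 0.0674, 0.075 and 0.229).

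The remaining accessory subunits rose with both mtDNAs. With mtDNA B6 their log2 fold changes were between 0.29 for *Ndufb11* and 0.82 for *Ndufa11*, both membrane arm subunits, and with mtDNA NZB between 0.38 for *Ndufb11* and 1.30 for *Ndufa12*. *Ndufs5* rose by 0.78 (SE 0.20) and 0.92 (SE 0.22) but was the lowest of the subunits in counts, at 7.90 to 11.7 CPM in resting B6 libraries, and its pseudogene *Ndufs5-ps* had 48.4% as many counts. For *Ndufa12* the pseudogene *Ndufa12-ps* had 14% as many. *Ndufb4*, a distal membrane arm subunit with near copies in the genome, was at 49.6 to 80.1 CPM (median 60.2) and 78.8 to 85.5 (median 82.1) with mtDNA B6, and at 16.9 to 67.2 (median 57.7) and 68.8 to 121 (median 88.3) with mtDNA NZB. It rose by 0.41 (SE 0.13) and 0.71 (SE 0.14), and its copy *Ndufb4c* had 4 counts over all libraries.

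Of the 8 assembly factors, 2 rose with mtDNA B6 and 5 with mtDNA NZB, with medians of 0.10 and 0.58, beside 22.4% and 25.2% of all genes that rose. The difference from the subunits was not tested. *Ndufaf2*, which stands in for *Ndufa12* while the N module is added, was the one that rose with both. It was at 20.9 to 34.2 CPM (median 29.4) in resting and 36 to 43.8 (median 38.1) in activated B6 libraries, and at 17.9 to 50.8 (median 22.9) and 33.7 to 50.2 (median 43.2) in NZB libraries. The B6 groups did not overlap, the resting NZB value of 50.8 was that of replicate 2, and the log2 fold changes were 0.45 (SE 0.14, adjusted p = 0.00934) and 0.86 (SE 0.15, adjusted p = 3.64e-05). Of the 75-base stretches of *Ndufaf2*, 15.4% also occur in other genes. *Ndufaf1*, of the MCIA complex that assembles the membrane arm, was at 5.40 to 8.61 CPM (median 6.32) and 8.05 to 13.3 (median 9.61) with mtDNA B6, where the states overlapped, and rose by 0.56 (SE 0.21, adjusted p = 0.0333). With mtDNA NZB it was at 4.02 to 16.9 CPM (median 7.19) and 5.75 to 11.7 (median 9.50), groups that overlapped, with a log2 fold change of 0.52 (SE 0.23, adjusted p = 0.0659).

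The other assembly factors act mainly on the Q module and its junction with the membrane arm. *Ndufaf6* was at 11.7 to 18.4 CPM (median 13.4) and 12.7 to 24.6 (median 17.8) with mtDNA B6, and at 0 to 14.4 (median 10.6) and 13.9 to 24.8 (median 19.1) with mtDNA NZB. Its log2 fold changes were 0.27 (SE 0.18, adjusted p = 0.229) and 0.67 (SE 0.20, adjusted p = 0.00582). *Ndufaf3*, *Ndufaf7* and *Ndufaf8* likewise rose with mtDNA NZB (0.64, 0.70 and 0.42) and had values of 0.05, 0.14 and -0.16 with mtDNA B6. Of these, *Ndufaf7* is a methyltransferase of complex I assembly, *Ndufaf8* is the partner of *Ndufaf5*, and *Ndufaf3* works with *Ndufaf4*. *Ndufaf3* overlaps the 3′ end of *Impdh2* on the other strand, which had 213% of its counts. *Prkd3*, on the other strand, overlaps the last 1000 bases of *Ndufaf7* and had 59.9% as many counts. *Ndufaf5*, which hydroxylates *Ndufs7*, had log2 fold changes of -0.13 and 0.17, and *Ndufaf4* of -0.50 (SE 0.28, adjusted p = 0.139) and -0.02 (SE 0.31, adjusted p = 0.98). *Ndufaf4* was at 3.01 to 9.48 CPM (median 7.05) in resting and 3.67 to 7.60 (median 4.47) in activated B6 libraries, and at 0 to 7.05 (median 4.13) and 1.96 to 6.20 (median 5.18) in NZB libraries. All its groups overlapped, and with 409 counts over all libraries it was the lowest of the tested members.

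Among 12 other complex I assembly factors in the table, of 13 listed, 11 were tested. Of these, 3 rose and 1 fell with mtDNA B6, and 7 rose and 1 fell with mtDNA NZB. Of all genes, 22.4% rose and 24.5% fell with mtDNA B6, and 25.2% rose and 28.4% fell with mtDNA NZB. *Tmem70* and *Tmem126b*, membrane proteins that help to build the membrane arm, rose with both (log2 0.68 and 0.88, and 0.87 and 0.95), whereas *Dmac2*, a factor of the distal arm, fell by 0.57 and 0.58. Of the 7 complex I subunits encoded by mtDNA, 3 were tested, and *mt-Nd3* and *mt-Nd4l* were listed at 0 in every library. The sum of all 7 was 41 to 64 CPM in resting and 24 to 39 in activated B6 libraries. In NZB libraries it was 17 to 28 CPM at rest outside replicate 2, in which it was 2981, and 5 to 62 after activation. The values of these genes turned on resting NZB replicate 2. Activated NZB replicate 1, with 641467 counts, also stood apart. It had *mt-Nd1* at 23 CPM and *mt-Nd4* at 24.4. The other activated NZB libraries had 2.2 to 5.55 and 1.24 to 4.79 CPM. Over all libraries *mt-Nd1* and *mt-Nd4* fell with activation under mtDNA NZB (log2 -3.40, adjusted p = 0.0302, and -4.03, adjusted p = 0.0111), and none of the 3 was called with mtDNA B6 (*mt-Nd1* -1.43, adjusted p = 0.263). Without resting NZB replicate 2, *mt-Nd1* fell with mtDNA B6 (-1.39, adjusted p = 0.00374) and *mt-Nd4* with mtDNA NZB (-1.40, adjusted p = 0.00791). In that fit *mt-Nd1* with mtDNA NZB had -0.28 (adjusted p = 0.593), with activated NZB replicate 1 kept. Whether *mt-Nd1* responds differently between the mtDNAs cannot be read from these values. Between the mtDNAs, *mt-Nd4* had a log2 difference of 0.81 at rest (adjusted p = 0.747) and -2.44 after activation (adjusted p = 1) over all libraries, and was lower with mtDNA NZB without replicate 2 (-1.76, adjusted p = 0.0217, and -2.42, adjusted p = 0.0294). Over 21 libraries (set out with the resting comparison) *mt-Nd4* was lower with mtDNA NZB at rest (-1.61, adjusted p = 0.012). After activation the difference did not pass (-2.25, adjusted p = 0.12). The mtDNAs differ in sequence, as the paper states, and reads of both were aligned to GRCm39. The part of alignment in these differences of *mt-Nd4* was not tested.

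*Ndufa4* (chr6:11897630-11907496, minus strand), named for complex I but a subunit of complex IV, was at 28.2 to 55.4 CPM (median 38.8) in resting and 51.4 to 79 (median 69.5) in activated B6 libraries. With mtDNA NZB it was at 16.9 to 36.5 CPM (median 22.9) and 27.3 to 74.3 (median 67). The groups overlapped with either mtDNA, through the highest resting B6 library and the lowest activated NZB library, and the log2 fold changes were 0.70 (SE 0.18, adjusted p = 0.00277) and 1.24 (SE 0.20, adjusted p = 1.4e-05).

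Counted by libraries, 30 of the 46 members with either mtDNA had every activated library above every resting one, where 15.4% of all genes did so with mtDNA B6 and 11.9% with mtDNA NZB. Without resting NZB replicate 2 this was so for 35 members with mtDNA NZB, against 14.1% of all genes. 0 members had every activated library below every resting one, where 16.4% and 6.95% of all genes did. Within library set 2, 41 of 46 members were higher in the 1 activated than in the 4 resting B6 libraries, with a median log2 ratio of 0.59, where 47.4% of all genes were higher, and set 2 was the one set with both states of mtDNA B6. With mtDNA NZB, and leaving out resting replicate 2, 42, 45 and 44 members were higher after activation within sets 1, 2 and 3, with median log2 ratios of 0.61, 0.65 and 0.88, where 49.9%, 48.7% and 46.6% of all genes were higher.

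RefSeq promoter windows (GRCm38.p6, 250 bases before to 50 after the start) were found for 41 of the 48 members and searched on both strands for 6 motifs of factors known to act on nuclear genes of respiration or growth. AAGATGGC, the core of the element bound by YY1, was present in 8 of the 41, that is 19.5%, against 3.19% of all 27025 genes with a window and 5.91% of those tested here. In all 8 it was in the direction of the gene and began 10 to 38 bases after the start. TGCGCA, the core of the NRF1 site, was present in 11 members (26.8%, against 17% of tested genes), and CCGGAAG of the ETS family in 6 (14.6% against 22.4%). TGACGTCA (CRE) and AAGGTCA (ERR) were in 3 members each (7.32%, against 3.66% and 3.81%), and CACGTG (E-box) in 2 (4.88% against 12.2%). TGCGCA, TGACGTCA and CACGTG read the same on both strands and were counted once. A match is a description of these letters, and no test was made. AAGATGGC also holds ATG, the letters of a start codon. Whether its matches are sites bound by YY1 or starts of coding sequence was not tested. The 30 bases around AAGATGGC are shown because this was the one of the 6 motifs found at a like place in each gene, with the motif in capitals:
*Ndufs7* (core, Q module), chr10:80249462-80249491, plus strand: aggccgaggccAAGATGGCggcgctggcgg
*Ndufa3* (accessory), chr7:3617384-3617413, plus strand: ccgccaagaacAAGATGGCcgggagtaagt
*Ndufc1* (accessory), chr3:51408915-51408944, minus strand: gcctgcggaacAAGATGGCgccgtccgtag
*Ndufs6* (accessory), chr13:73328433-73328462, minus strand: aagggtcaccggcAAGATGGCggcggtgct
*Ndufs4* (accessory), chr13:114388045-114388074, minus strand: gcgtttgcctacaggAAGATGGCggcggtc
*Ndufa9* (accessory), chr6:126849097-126849126, minus strand: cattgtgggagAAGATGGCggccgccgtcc
*Ndufb8* (accessory), chr19:44555393-44555422, minus strand: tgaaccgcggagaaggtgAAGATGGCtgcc
*Ndufaf8* (assembly factor), chr11:120098933-120098962, plus strand: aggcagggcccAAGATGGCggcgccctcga
These coordinates are on GRCm38.p6 and those of genes elsewhere on GRCm39. The 8 genes did not respond alike: *Ndufc1*, *Ndufs6*, *Ndufs4*, *Ndufa9* and *Ndufb8* rose with both mtDNAs, and *Ndufs7*, *Ndufa3* and *Ndufaf8* with mtDNA NZB alone.

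In resting cells, 4 members were lower with mtDNA NZB and 0 were higher, that is 8.7% of the 46 lower, where 0.861% of all genes were lower and 1.9% higher. All 4 were accessory subunits. The members leaned one way: 45 of 46 had a log2 difference below 0, against 51.2% of all genes, and the median was -0.26 against -0.011. Members were measured in the same libraries, so these are not 46 separate observations. The 4 calls were near the threshold and most depended on the fit. They were 0 when libraries of resting cells were fitted alone (the smallest adjusted p being 0.186), 0 with the library set as a term, and 0 without resting NZB replicate 5 or without any one of resting B6 replicates 1, 3, 4 and 5, but 7 over 21 libraries, where 3.88% of all genes were lower. These 21 libraries leave out resting NZB replicates 2 and 6 and activated NZB replicate 6. In the fits with 0 members named so far, few of all genes were lower either. They were 0 with resting libraries fitted alone, 1 with the library set, and 0 without resting NZB replicate 5. Without resting B6 replicates 1, 3, 4 and 5 they were 2, 6, 0 and 7, beside 91 in the main fit. Other fits with 0 members kept more. They had 72 of all genes lower without a filter, 13 with the second table and 33 with the replicate block by title number.

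**Figure D3:**
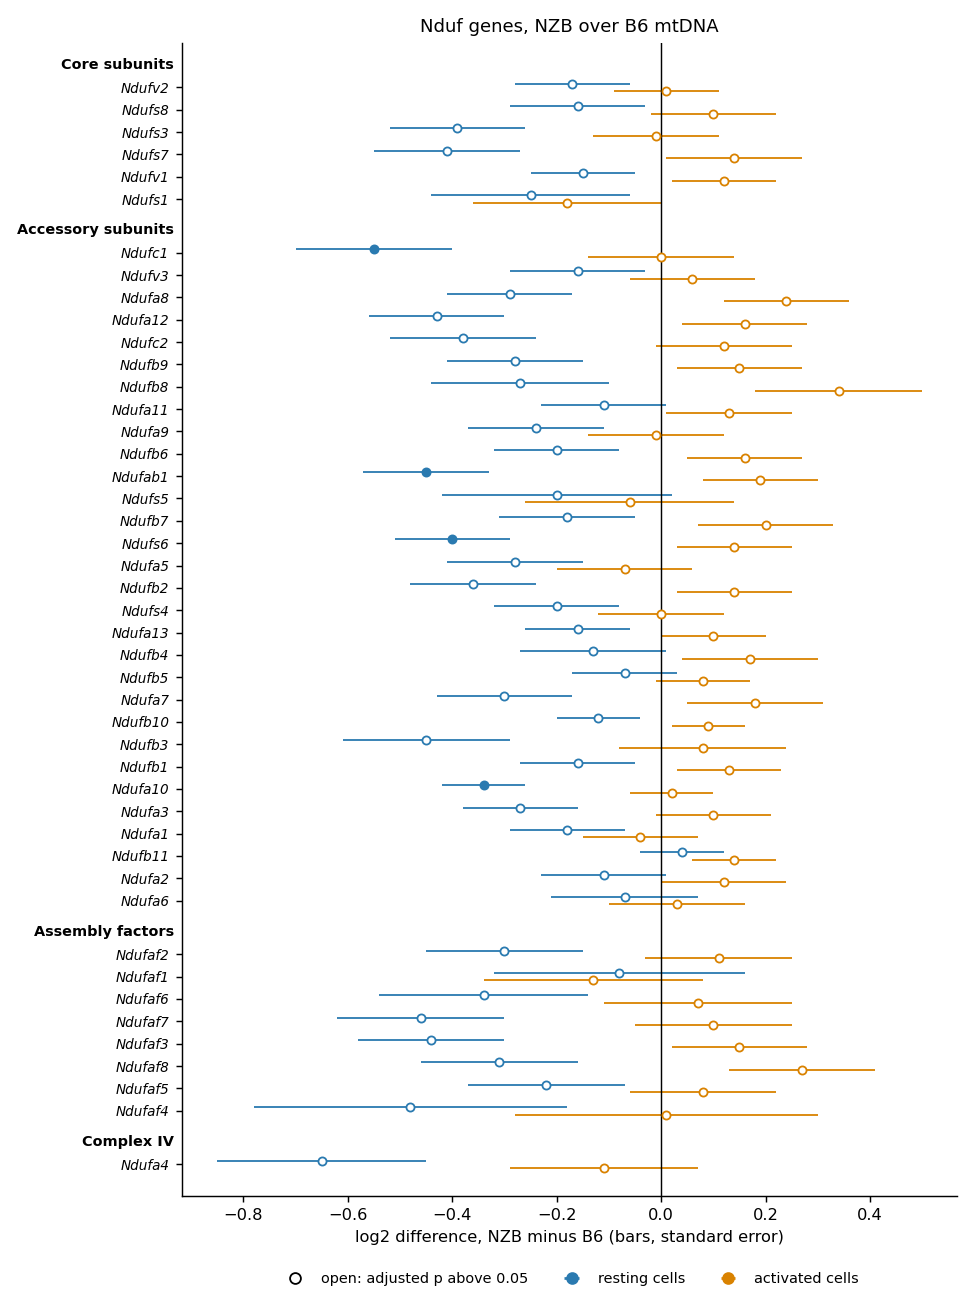
Log2 difference of mtDNA NZB minus mtDNA B6 (x axis) for 45 of the 46 tested Nduf genes in resting (blue) and activated (orange) cells, with the standard error as a bar. Filled points have an adjusted p of at most 0.05 (edgeR). *Ndufc1*, *Ndufab1*, *Ndufs6* and *Ndufa10* are filled in resting cells, where all but *Ndufb11* lie left of 0, and in activated cells most lie right of 0 and none is filled.

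*Ndufa10* (chr1:92361375-92401613, minus strand), a subunit of the membrane arm related to nucleoside kinases, had the smallest p. It was at 169 to 202 CPM (median 176) in resting B6 and 122 to 169 (median 146) in resting NZB libraries, the highest of which was replicate 2, followed by 156. The groups touched only there, and the log2 difference was -0.34 (SE 0.08, adjusted p = 0.0366). *Ndufab1* (chr7:121684626-121701393, minus strand), the mitochondrial acyl carrier protein, which also serves fatty acid synthesis and iron-sulfur cluster assembly, was at 103 to 151 CPM (median 122) and 73.3 to 105 (median 91.0). The groups overlapped by a single library, and the difference was -0.45 (SE 0.12, adjusted p = 0.0432). *Ndufc1* was at 73.3 to 104 CPM with mtDNA B6 and 33.9 to 71.1 with mtDNA NZB, as above, and these did not overlap (-0.55, SE 0.15, adjusted p = 0.0456). *Ndufs6* (chr13:73464968-73476661, minus strand), a zinc-binding subunit between the N and Q modules, was at 192 to 252 CPM (median 224) and 130 to 187 (median 175). All NZB libraries were below all B6 libraries, and the difference was -0.40 (SE 0.11, adjusted p = 0.0464).

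*Ndufs6*, *Ndufc1* and *Ndufb2* were the 3 members whose resting NZB libraries were all below the resting B6 libraries, where 0.738% of all genes were, and for 0 members were they all above, where 0.398% of all genes were, although *Ndufb2* did not pass the test (-0.36, SE 0.12, adjusted p = 0.0844). *Ndufb11*, with 0.04 (SE 0.08), was the one member above 0. Among core subunits the difference was below 0 for 7 of 7, the widest being -0.41 for *Ndufs7* (adjusted p = 0.0831), and among assembly factors between -0.48 for *Ndufaf4* (adjusted p = 0.37) and -0.08 for *Ndufaf1*. *Ndufa4* had -0.65 (SE 0.20, adjusted p = 0.0703), the widest difference of any member. Within library sets, and leaving out resting NZB replicate 2, 40 of 46 members were lower in the 1 NZB than in the 4 B6 libraries of set 2 (median log2 ratio -0.21), and 41 in the 3 NZB than in the 2 B6 libraries of set 3 (-0.27), where 51.1% and 49.8% of all genes were lower. Set 1 held no resting B6 library. Markers of other cells differed between these groups in their medians, although every range overlapped: with mtDNA NZB against B6 the summed medians were 653 against 2130 CPM for neutrophils, 276 against 1130 for granulocyte precursors, 334 against 1820 for erythroid cells and 842 against 1470 for myeloid cells, and 12400 against 11600 for B cells. Their part in the lower Nduf levels was not tested.

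In activated cells 0 members differed between the mtDNAs by edgeR, and 0 by DESeq2, and 0 of all 10566 genes did by edgeR. At an unadjusted p under 0.05 there was 1 member, *Ndufb8*, against 3.09% of all genes. *Ndufb8*, a distal membrane arm subunit, was at 106 to 135 CPM (median 125) in activated B6 and 105 to 197 (median 167) in activated NZB libraries, groups that overlapped, with a log2 difference of 0.34 (95% interval 0.01 to 0.67, adjusted p = 1). Next were *Ndufa8*, with 0.24 (95% interval -0.00 to 0.48), and *Ndufaf8*, with 0.27 (-0.02 to 0.56). *Ndufaf8* was at 82.8 to 116 CPM (median 100) in activated B6 and 106 to 136 (median 122) in activated NZB libraries. For 0 members were the groups apart in either direction, where 0.0284% of all genes were apart in each. The difference was above 0 for 35 of 46 members, against 53.3% of all genes. The median over the members was 0.10, beside 0.014 for all genes, and the values were between -0.18 for *Ndufs1* and 0.34 for *Ndufb8*. *Ndufc1* and *Ndufa10*, lower at rest with mtDNA NZB, had differences of -0.00 (95% interval -0.29 to 0.28) and 0.02 (-0.15 to 0.18) in activated cells.

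**Figure D4:**
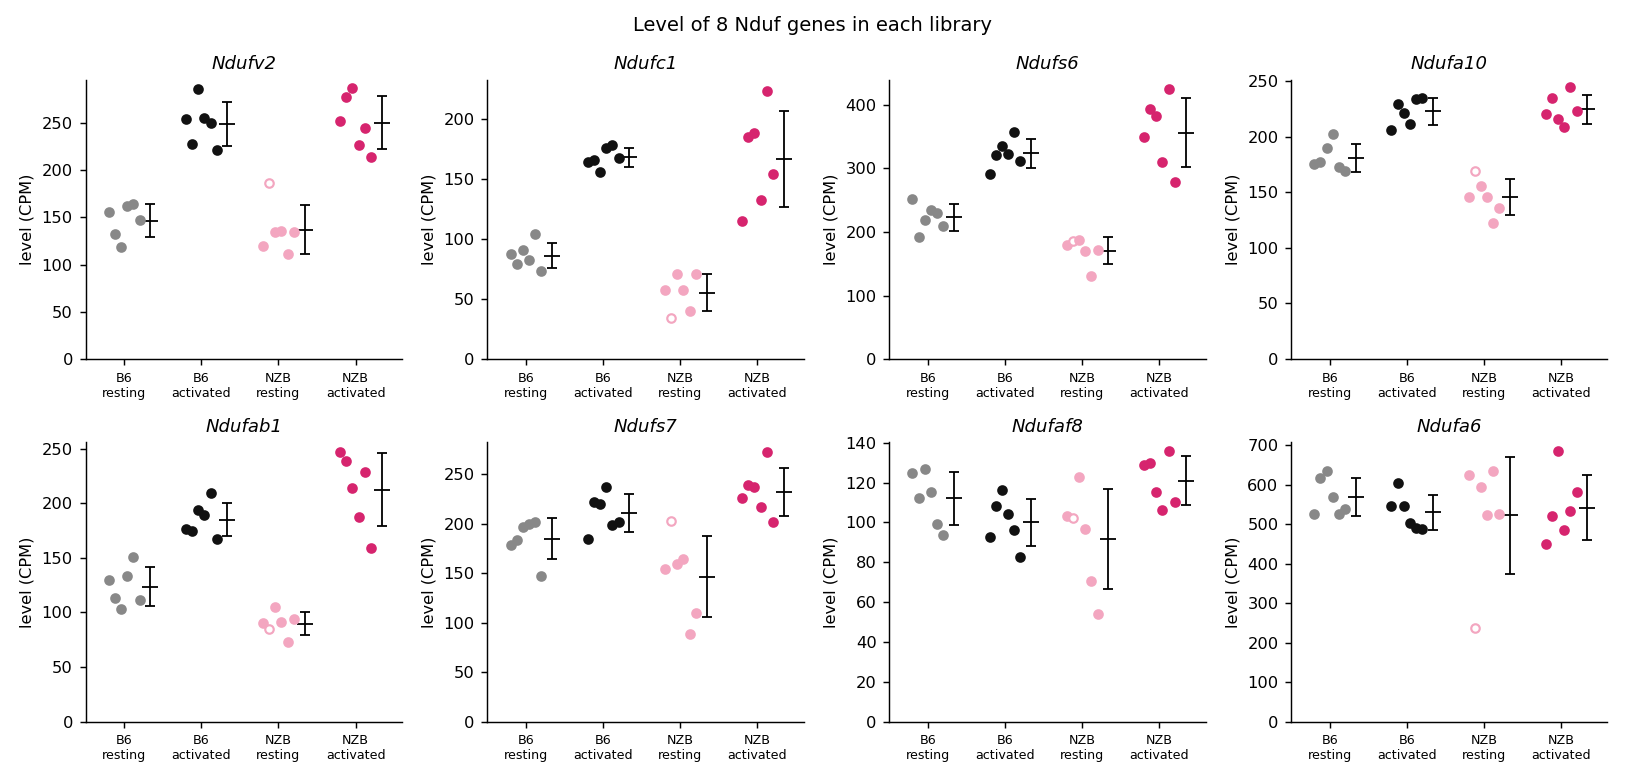
Level (CPM, y axes from 0) of 8 Nduf genes in each of the 24 libraries, by group (x axis), with the mean and SD of 6 libraries as bars and resting NZB replicate 2 as an open point. *Ndufc1* and *Ndufs6* have resting NZB libraries below all resting B6 libraries, *Ndufv2* is higher in every activated library, *Ndufs7* and *Ndufaf8* overlap between states with mtDNA B6, and *Ndufa6* overlaps among all groups.

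The interaction, that is the NZB response minus the B6 response, was called for 0 members by edgeR and 0 by DESeq2, and for 0 of all 10566 genes by edgeR, 1 by DESeq2. At an unadjusted p under 0.05 there were 20 members of 46, against 14.3% of all genes. The difference was above 0 for 45 of 46 members, against 52.2% of all genes, with a median of 0.36 against 0.021. It shares the resting NZB libraries with the comparison at rest and with activation under mtDNA NZB, so the 3 sets of values are not separate evidence. The 3 smallest p were those of *Ndufab1* (0.64, SE 0.16, unadjusted p = 0.000621), *Ndufs6* (0.54, SE 0.15, unadjusted p = 0.00152) and *Ndufa12* (0.59, SE 0.18, unadjusted p = 0.00315), all with an adjusted p of 0.207. *Ndufab1* was at 167 to 209 CPM (median 182) in activated B6 and 159 to 247 (median 221) in activated NZB libraries, and its response was 0.58 with mtDNA B6 and 1.22 with mtDNA NZB. *Ndufs6* was at 291 to 358 CPM (median 322) and 278 to 425 (median 366) in activated cells, with responses of 0.54 and 1.08. *Ndufa12* was at 65.5 to 99.1 CPM (median 81) in resting and 109 to 165 (median 138) in activated B6 libraries, and at 49.5 to 67.2 (median 63.7) and 117 to 191 (median 151) in NZB libraries, with responses of 0.71 and 1.30. For all 3 the activated groups overlapped between the mtDNAs, and the resting medians were lower with mtDNA NZB.

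By class, the median interaction was 0.26 for core subunits, 0.33 for accessory subunits and 0.45 for assembly factors, and the one member below 0 was *Ndufaf1* (-0.05, SE 0.32). The 8 members that rose with mtDNA NZB alone had interactions between 0.37 for *Ndufa3* and 0.59 for *Ndufaf3*, with adjusted p of at least 0.21, so none of them was shown to respond differently between the mtDNAs. Over 21 libraries, *Ndufb8* (0.90, SE 0.19, adjusted p = 0.0422), *Ndufab1* (0.72, SE 0.16, adjusted p = 0.0439) and *Ndufs6* (0.62, SE 0.15, adjusted p = 0.0483) passed, where 0.878% of all genes did in this direction. With the library set added as a term over the same libraries, 0 members passed. The 21 libraries were chosen after the data were seen. They leave out activated NZB replicate 6, the lowest activated NZB library for *Ndufb8*, *Ndufab1* and *Ndufs6* (105, 159 and 278 CPM). They also leave out resting NZB replicate 6, the highest resting NZB library for *Ndufb8* (101 CPM). These passes therefore depend on which libraries were left out.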

How the data were processed

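Bulk MARS-seq libraries of Tconv CD4+ cells were analysed from the UMI counts per gene that the authors deposited. According to the study's methods, reads were trimmed with cutadapt, fragments shorter than 30 bases removed, and the remainder aligned with STAR to the last 1000 bases of GRCm39 transcripts, counted with htseq-count, collapsed by UMI and corrected for saturation. The strand setting of the counting is not given in the sources used here. A second deposited table of larger counts was read as counts before UMI collapse and used as an alternative only. In the tables, 1 column matched no sample and was not used. Counts of genes without an annotation were 0.0272% of the total.

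The 4 groups were fitted together with edgeR 4.0.16 (R 4.3.3, limma 3.58.1), with TMM scaling, filterByExpr and the quasi-likelihood test. Benjamini-Hochberg adjustment ran over all 10566 tested genes, and an adjusted p of at most 0.05 was called. CPM were computed on effective library sizes, the UMI total of a library over the tested genes times its TMM factor. DESeq2 1.42.0 was an alternative. Within groups every pair of libraries differed beyond counting noise (smallest chi-square over its degrees of freedom 3.08), so no library was treated as a repeat. Members were chosen by symbol. Values by library are given for core subunits on which a result turns, for the 3 largest rises and falls within accessory subunits and within assembly factors by mean log2 fold change over both mtDNAs, for *Ndufa4* and *Ndufaf2*, for near copies, and for the 3 smallest p of each mtDNA comparison and of the interaction. *Ndufb2*, *Ndufs5*, *Ndufa11* and *Ndufb11* were named after their values were seen. For 1 member, values are not reported here, and it is counted in the totals. Members and lists were chosen with earlier results of these data known. The 21 libraries used as an added alternative, chosen after the data were seen, are those that an earlier analysis of these files matched to group means tabulated by the study. Promoter windows came from RefSeq (GRCm38.p6), and gene positions from the GRCm39 annotation. Near copies were sought as 75-base stretches shared between transcripts.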

Additional observations from a re-analysis of the deposited data

Results flagged for a closer look

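Within each group of 6 libraries the highest and lowest value of every tested member that the text describes by library were compared with the rest by Dixon's criterion, which chance alone meets in about 1 in 20 groups. Of 88 groups examined, 10 had a library far from the others, and 7 of the 10 were resting NZB replicate 2, the library of 51409 counts in which 1 count is 16.9 CPM. In it *Ndufs8* was at 220 CPM (nearest library 110), *Ndufv2* at 186 (136) and *Ndufaf1* at 16.9 (8.40), above the others. In the same library *Ndufa6* was at 237 CPM (nearest 523), *Ndufv3* at 102 (209), *Ndufa8* at 33.9 (88.4) and *Ndufaf6* at 0 (10), below the others. *Ndufs6* was lowest in resting NZB replicate 5, at 130 CPM against 170 for the nearest library. *Ndufb8* was highest in resting NZB replicate 6, at 101 CPM against 59.1. *Ndufaf4* was highest in activated B6 replicate 3, at 7.60 CPM against 4.66.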

How the results depend on the processing

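The count of members higher after activation was between 25 (libraries thinned to 641467 counts) and 36 (resting and activated B6 libraries fitted alone) with mtDNA B6, and between 35 (thinned) and 42 (library totals) with mtDNA NZB, and leaving out single libraries gave 31 to 35 and 39 to 41. A log2 fold change of at least 1 left 0, 14 and, for lower members at rest, 0. With the library set as a term, 27 members rose with mtDNA B6, among them 3 core subunits and 1 assembly factor. In that fit 1721 of all 10566 genes rose. Over 21 libraries with the library set as a term, 1 member, an assembly factor, fell with mtDNA B6, where 1826 of all 10826 genes fell. The 4 members lower at rest with mtDNA NZB were 1 with library totals, 2 after thinning, 7 over 21 libraries, and 0 without a filter, with the second table, with 2 groups only, with the library set as a term and with the replicate block by title number. In the fits with 0 members, 72, 13, 0, 1 and 33 of all genes were lower, in the order named. Leaving out single libraries gave 0 to 5 members, the 5 without resting NZB replicate 2. The interaction was called for 3 members over 21 libraries and for 0 under the other alternatives. With library totals in place of TMM the median of all genes moved to 0.10 with mtDNA B6, and calls over all genes were 3016 higher and 2008 lower in place of 2368 and 2590. *Ndufa6* changed sign with mtDNA B6 under library totals (0.03), and its 0.00 with mtDNA NZB became -0.03 with upper-quartile scaling, DESeq2 or the library set as a term, -0.04 with a minimum count of 30, -0.05 with the replicate block by label number, -0.11 after thinning, -0.15 over 21 libraries with or without the library set, -0.12 over 21 libraries with the block, and -0.07 to 0.05 without single libraries. *Ndufaf4* with mtDNA NZB (-0.02) became 0.11 with library totals, 0.00 without a filter, 0.09 over 21 libraries, and -0.16 to 0.16 without single libraries. Causes were not tested. Of the other results for named members, 577 kept direction and side of the threshold, 71 lost and 6 gained a call. Same-numbered libraries had correlations of -0.208 to 0.343 by label number and -0.253 to 0.343 by title number, not all over 0.1, so the numbers were not taken as pairs: with the replicate block by title number 33 and 40 members rose, and by label number 31 and 36, and with the label numbers the mtDNA comparisons could not be fitted. With 51409 counts, resting NZB replicate 2 limits values of low genes such as *Ndufaf4* and *Ndufaf6*.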
